A study of Chimonocalamus delicatus with 27 samples.

Results

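The stem of Chimonocalamus delicatus, an aromatic bamboo of Yunnan, was compared at 3 years and at 1 year of age by mRNA sequencing. The members of the comparison are the 3 libraries labelled as 3-year stem and the 3 labelled as 1-year stem, which are 6 of the 27 libraries of the series and 6 of the 15 of its growth stage set. That set also holds a shoot and stems of 0.5 and 2 years, and the other 12 libraries are of plant parts. The study asked how the expression of terpene genes differs with culm age and plant part. The labels give the stem age and a replicate number, and the fields for genotype and treatment hold only library names or the stage, so the 1-year, 2-year and 3-year stems are described here by age alone. They do not say whether replicates came from separate culms or plants, so every p-value measures only the spread between these libraries.

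A bamboo culm reaches its full height and width within its first growing season and has no cambium that would widen it later. What changes with age is inside existing cells: fibre and parenchyma walls gain cellulose, xylan and lignin layers, the green outer tissue ages, and living parenchyma stores and releases starch and sugars. Secondary walls are built by a dedicated set of cellulose synthases, laccases and their NAC regulators, while dehydrins, raffinose family sugars and abscisic acid are known for their roles in drought and cold tolerance.

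Expression was given for 55972 genes, both as estimated read counts and as FPKM, which scales the fragments of a gene by its length and by library size. Of these, 24839 genes reached an FPKM of 1 in at least 3 of the 9 stem libraries of 1, 2 and 3 years and were tested. The counts summed to between 8615092 and 12336896 per library in these 9. The coefficient of biological variation within a group was 26.6% in the 1-year, 22.8% in the 2-year and 21.9% in the 3-year stem. No pair of libraries in a group was alike within sampling noise. Levels below are FPKM in libraries 1, 2 and 3 of a group. Log2 changes are 3-year minus 1-year, fitted to counts with edgeR, and given with their standard error (SE). A gene is said to have risen or fallen only at an adjusted p under 0.05 over all genes tested. The symbols and descriptions in the deposited annotation come from related sequences in other plants. Genes of 1 family can share reads, and 34 tested genes, 6 of them called, have counts equal to those of another tested gene in every library.

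Between 1 and 3 years 3058 genes changed (12.3% of those tested), 1657 upwards (6.67%) and 1401 downwards (5.64%). A change of more than 2-fold was fitted for 1080 of the risen and 967 of the fallen genes, and the median log2 change of all genes was -0.02. The split between directions depended on the scale: limma on log2(FPKM + 1) called 3459 genes, 1097 higher and 2362 lower, with the median of all genes at -0.18. Single libraries also counted. Without 3-year library 3 the calls numbered 569, without 1-year library 2 they numbered 1246, and without 3-year libraries 2 and 1 they numbered 1687 and 1951. All 3058 genes kept their direction in each of the 6 fits that left out 1 library, and 526 (369 higher and 157 lower) were called in each.

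The 2-year stem was compared with both ends in the same fit, so each step shares libraries with the main comparison. Against the 1-year stem it had 437 called genes, 331 higher and 106 lower. Between 2 and 3 years edgeR called 0 genes, with 1934 at an unadjusted p under 0.05, while DESeq2 called 121 and limma 0.

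**Figure D1:**
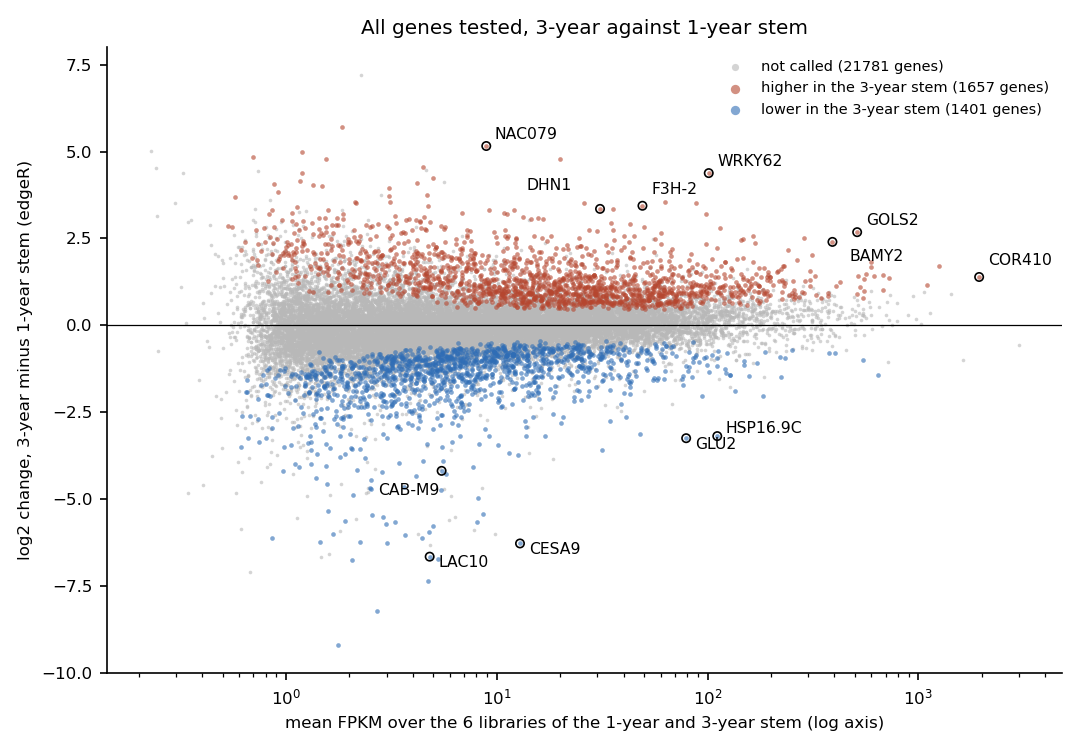
Log2 change from 1-year to 3-year stem (vertical axis) against the mean level of each gene (horizontal axis, log scale), 1 point per gene for the 24839 genes tested. Coloured points are the 1657 genes that rose and the 1401 that fell, and 12 genes described in the text are labelled. The labelled genes that fell furthest, CESA9 and LAC10, lie below -6 on the log2 scale.

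Grouped by function, the lists with the highest share of risen members were LEA proteins and dehydrins (9 of 22 tested), raffinose family synthesis (7 of 18), and NAC transcription factors (29 of 93), against 6.67% of all genes. Carbon fixation (11 of 14), light harvesting and photosystems (26 of 54) and tubulins (7 of 21) had the highest shares of fallen members among the functional lists, against 5.64% of all genes. Several lists held changes in both directions, among them pectin enzymes, lignin synthesis and nitrogen transport. Some genes stand in more than 1 list. All lists were chosen with earlier results of these data known. The raffinose family, tubulin, xylan and UDP-xylose, SPL, calcium signalling and endoplasmic reticulum folding lists were drawn up after values were seen. The shares of all lists are therefore descriptive and give no support for an excess.

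Of 19 tested terpene synthases, the enzymes that make the scented hydrocarbons the study is about, 3 fell and 0 rose, with a median log2 change of -1.04 over the list. The 3 are described as germacrene D synthases, which cyclise farnesyl diphosphate. The most changed by level, PH02Gene40251, was at 3.73, 2.02 and 6.46 FPKM in the 1-year and at 0.75, 1.19 and 0.63 in the 3-year libraries. The groups did not overlap, as was the case for 26.8% of all tested genes in this direction and for 10.2% in the other, and the log2 change was -2.05 ± 0.43 (SE, adjusted p = 0.018). It was no longer called without 3-year library 1 or 3. The other fallen members were PH02Gene39252 and PH02Gene40256, at log2 changes of -1.73 ± 0.43 and -1.73 ± 0.47 (SE). The count of 3 was 0, 2 and 0 without 3-year libraries 1, 2 and 3, and 2, 3 and 1 without 1-year libraries 1, 2 and 3.

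The most abundant terpene synthases did not pass the test. TPS7 (PH02Gene05612), described as a beta-bisabolene synthase, was at 14.79, 52.06 and 49.89 FPKM at 1 year and at 39.59, 5.76 and 47.02 at 3 years. The groups overlapped, with library 1 low at 1 year and library 2 low at 3 years, and the log2 change was -0.09 ± 0.70 (SE, adjusted p = 0.951). TPS2 (PH02Gene40249), described as a germacrene D synthase, was at 29.22, 12.99 and 37.45 at 1 year and at 9.05, 13.21 and 6.70 at 3 years. Only the lowest 1-year library reached down into the 3-year range, and the log2 change was -1.28 ± 0.42 (SE, adjusted p = 0.0701). A second TPS2 gene, MSTRG.49967, was at 31.58, 19.69 and 58.32 and at 15.80, 33.73 and 13.84, with a log2 change of -0.60 ± 0.45. For the others of the 6 most abundant, the log2 changes were -1.04 ± 0.52 for PH02Gene48180, -0.46 ± 0.52 for CarS (PH02Gene40255) and -0.69 ± 0.91 for STPS (PH02Gene50979). Summed over the list, the FPKM was 137.0 to 245.2 in the 1-year and 86.3 to 98.0 in the 3-year libraries. The 2-year sums were 67.1, 158.7 and 99.6, with library 2 inside the 1-year range.

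Upstream of the synthases, 4 of 45 terpenoid backbone genes rose and 4 fell, with a median log2 change of -0.10. The share was 8.89% in each direction, against 6.67% (higher) and 5.64% (lower) of all genes. CLA1 (PH02Gene22727), a 1-deoxyxylulose phosphate synthase that catalyses the first plastid step, was at 13.31, 16.86 and 32.68 FPKM at 1 year and at 67.88, 72.21 and 62.89 at 3 years. Every 3-year library was above every 1-year library, and the log2 change of 1.90 ± 0.27 (SE, adjusted p = 0.00589) held in all 6 leave-outs. The next enzyme of that route, DXR (PH02Gene27589), rose by 1.35 ± 0.24, and the last, ISPH (PH02Gene40431), by 0.95 ± 0.16 on the log2 scale. Geranylgeranyl diphosphate synthase, at the branch to carotenoids and chlorophyll, rose as GGPS (PH02Gene17903, 0.89 ± 0.18). Another member named GGPPS1 (PH02Gene08799) fell, at -2.40 ± 0.62.

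FPS (PH02Gene40477), the farnesyl diphosphate synthase that feeds sesquiterpene synthesis, was at 14.62, 5.38 and 11.72 FPKM at 1 year and at 2.38, 3.14 and 3.80 at 3 years. Its log2 change was -1.59 ± 0.39 (SE, adjusted p = 0.03), a call that only the fit without 1-year library 2 kept among the leave-outs. HMG3 (PH02Gene04633), a hydroxymethylglutaryl-CoA reductase of the cytosolic mevalonate route, fell by 0.66 ± 0.17 on the log2 scale. TKT2 (PH02Gene29284), described as another deoxyxylulose phosphate synthase, had a log2 change of -0.47 ± 0.13. The 4 falls of the list were 1, 0 and 0 without 3-year libraries 1, 2 and 3 and 0, 2 and 1 without 1-year libraries 1, 2 and 3, whereas the rises numbered 3 or 4.

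Several genes of secondary wall formation were below 1 FPKM in every 3-year library. Of the 32 tested markers of xylem and fibre walls 14 fell and 1 rose, with a median log2 change of -4.32, which was -1.94 with limma on log2(FPKM + 1) and -1.79 after quantile normalization. The list holds 132 genes, and those not tested did not pass the FPKM filter. A gene below 1 FPKM in every 3-year library could pass it only through younger stems. The share of falls and the median therefore lean towards falls. CESA9 (PH02Gene25266), a catalytic subunit of the secondary wall cellulose synthase, was at 22.82, 3.89 and 49.78 FPKM at 1 year and at 0.29, 0.35 and 0.21 at 3 years. The groups were far apart but the 1-year libraries differed strongly among themselves, with library 2 lowest. The log2 change was -6.28 ± 1.72 (SE, adjusted p = 0.0414), and it was called in 0 of the 6 leave-outs. A second CESA9 gene (PH02Gene24930) and CESA7 (PH02Gene24001) were at 15.64, 4.81 and 30.21 and at 13.43, 3.84 and 30.25 at 1 year, and below 1 in each 3-year library, with log2 changes of -5.43 ± 1.48 and -5.65 ± 1.48 that 0 and 1 of the leave-outs kept. A further member of the complex, CESA4 (PH02Gene15083), fell by 4.70 ± 1.21 on the log2 scale. In these bulk samples, fewer cells of a type and less RNA per cell cannot be told apart.

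LAC10 (PH02Gene00184), a laccase of a family that polymerises lignin, was at 8.18, 1.28 and 19.14 FPKM at 1 year and at 0.04, 0.15 and 0.05 at 3 years, with the same order among the 1-year libraries as CESA9. Its log2 change was -6.66 ± 1.83 (SE, adjusted p = 0.0416), called without 1-year library 2 but in none of the other 5 leave-outs. Members whose counts were 0 in all 3-year libraries were BC1 (PH02Gene47900), a COBRA-like protein needed for culm strength in rice, and FLA13 (PH02Gene50585), a fasciclin-like arabinogalactan protein. BC1 had 72, 20 and 148 counts in the 1-year libraries and was at least 87.0-fold lower at 3 years, and FLA13 had 44, 16 and 60 counts and was at least 43.6-fold lower, taking 3 counts over all 3-year libraries as the lowest detectable amount. FLA11 (PH02Gene15579), FLA7 (PH02Gene17681) and LAC22 (PH02Gene23801) fell too, with log2 changes of -7.35 ± 2.01, -6.05 ± 1.41 and -6.23 ± 1.35.

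The 2-year stem separated its libraries on these genes. CESA9 (PH02Gene25266) was at 0.35, 28.92 and 0.38 FPKM there, and LAC10 (PH02Gene00184) at 0.20, 10.35 and 0.11, so 2-year library 2 stood with the 1-year libraries and the other two with the 3-year ones. The summed FPKM of the xylem and fibre wall list was 646.2, 472.0 and 792.3 at 1 year, 403.2, 741.3 and 399.7 at 2 years, and 334.3, 360.8 and 359.8 at 3 years. Whether the amount of wall-forming tissue in a sample had a part in these differences was not tested. Of the 14 falls, 3, 1 and 1 were called without 3-year libraries 1, 2 and 3 and 4, 8 and 4 without 1-year libraries 1, 2 and 3.

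BC1L4 (PH02Gene30808), a COBRA-like protein and the only fallen wall marker above 100 FPKM at 1 year, stayed at a mean of 44.2 FPKM at 3 years, with a log2 change of -1.16 ± 0.25 (SE, adjusted p = 0.0205). The 1 marker that rose, COBL7 (PH02Gene14754), is another COBRA-like gene. It was at 40.74, 21.66 and 36.70 at 1 year and at 63.24, 42.04 and 57.08 at 3 years, with a log2 change of 0.90 ± 0.26 (SE, adjusted p = 0.047) that 4 of the 6 leave-outs lost.

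**Figure D2:**
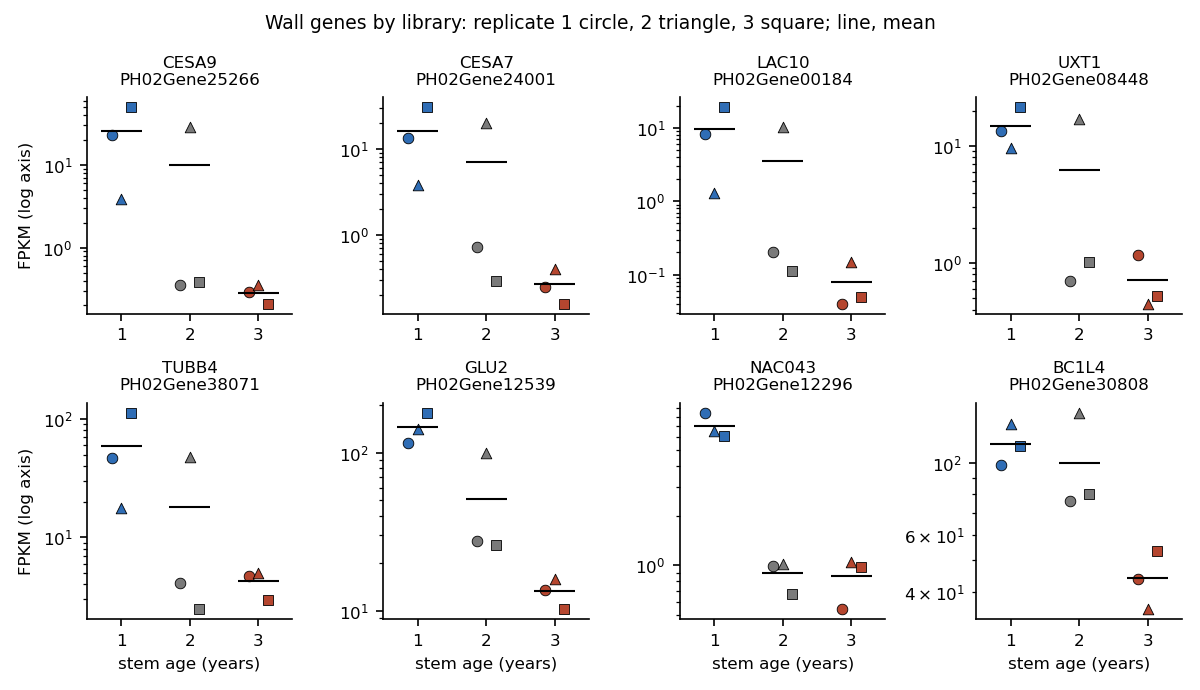
FPKM (log axis) of 8 wall genes in each library of the 1-year, 2-year and 3-year stem, with short lines at the group means. CESA9, CESA7, LAC10 and UXT1 are below 1.2 FPKM in every 3-year library and spread widely at 1 year, and 2-year library 2 lies near the 1-year level for these genes and for TUBB4.

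NAC043 (PH02Gene12296), named after a NAC master switch of fibre secondary walls in Arabidopsis, was at 8.46, 6.59 and 6.09 FPKM at 1 year and at 0.54, 1.05 and 0.98 at 3 years. Unlike the wall genes above, its 1-year values lay close together and its 2-year values (0.99, 1.02 and 0.67) were all low. The log2 change was -2.87 ± 0.31 (SE, adjusted p = 0.0025) and held in all 6 leave-outs, and a second NAC043 gene (PH02Gene13021) fell by 4.19 ± 0.83. GLU2 (PH02Gene12539), described as a beta-glycosidase that cuts cellulose-type chains, was at 115.58, 141.56 and 178.13 at 1 year and at 13.67, 15.94 and 10.27 at 3 years. All 1-year libraries were several times above all 3-year libraries, with a log2 change of -3.25 ± 0.46 (SE, adjusted p = 0.00597) in a call kept by all leave-outs. Its 2-year values, 27.58, 100.03 and 25.99, again set library 2 apart.

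Among tubulins, which form the microtubule tracks that guide cellulose synthase, 7 of 21 fell and 0 rose, and the median log2 change was -0.75. TUBB4 (PH02Gene38071) was at 47.18, 17.66 and 112.85 FPKM at 1 year and at 4.76, 5.04 and 2.95 at 3 years, and its log2 change of -3.59 ± 1.02 (SE, adjusted p = 0.0466) was called in 0 of the 6 leave-outs. TUBA3, an alpha-tubulin, fell as PH02Gene17884 from a mean of 117 to 34.7 FPKM (-1.55 ± 0.21) and as PH02Gene37852 from 128 to 54.3 (-1.05 ± 0.17). The 7 falls became 2, 2 and 2 without 3-year libraries 1, 2 and 3 and 3, 6 and 2 without 1-year libraries 1, 2 and 3. CSI1 (MSTRG.25298), which links cellulose synthase to microtubules, fell by 0.95 ± 0.24, and CSI3 (PH02Gene16250), a related protein, by 1.24 ± 0.27. Over the whole list of cellulose and hemicellulose synthesis genes 10 of 56 fell and 2 rose, with a median of -0.30. Each leave-out called 1 or 2 members lower. CSLF2 (PH02Gene44463), a cellulose synthase-like gene of the family that makes mixed-linkage glucan in grasses, went the other way, from 0.19, 0.67 and 1.99 to 5.39, 3.50 and 16.67 FPKM (3.42 ± 0.86, adjusted p = 0.0311). That call was lost without 3-year library 3, 1-year library 1 or 1-year library 2.

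Of 67 genes of xylan substitution and UDP-xylose supply 5 rose and 8 fell, with a median of -0.09. The risen share was 7.46%, against 6.67% of all genes, and the fallen share 11.9%, against 5.64%. The rises included 4 loci of UXS2, the enzyme that makes UDP-xylose, and the falls 3 UDP-xylose transporters. UXS2 (PH02Gene32644) was at 2.29, 1.73 and 2.52 FPKM at 1 year and at 13.10, 7.23 and 11.45 at 3 years, without overlap, with a log2 change of 2.48 ± 0.32 (SE, adjusted p = 0.00473) in all 6 leave-outs. The abundant UXS2 gene PH02Gene29114 went from a mean of 89.6 to 167 FPKM, a log2 change of 1.1 ± 0.22. UXT1 (PH02Gene08448), which carries UDP-xylose into the Golgi, was at 13.38, 9.55 and 21.44 at 1 year and at 1.17, 0.45 and 0.52 at 3 years (-4.08 ± 1.05, adjusted p = 0.0339), and no leave-out kept the call. ESK1 (PH02Gene00062) and TBL33 (PH02Gene34781 and PH02Gene36297), relatives of xylan acetyltransferases, fell, with log2 changes of -4.08 ± 1.17, -5.34 ± 1.38 and -5.63 ± 1.58. The rises numbered 4, 4 and 1 without 3-year libraries 1, 2 and 3 and 6, 3 and 5 without 1-year libraries 1, 2 and 3, and the falls 1, 0 and 0 and then 5, 2 and 1.

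In lignin and phenylpropanoid synthesis 11 of 69 genes rose and 8 fell, with a median log2 change of 0.26. PAL (PH02Gene27016), a phenylalanine ammonia-lyase at the entry to the pathway, was at 107.34, 58.06 and 121.43 FPKM at 1 year and at 34.24, 28.78 and 22.29 at 3 years (-1.56 ± 0.34, adjusted p = 0.0201), lost without 3-year library 2 or 3. Other phenylalanine ammonia-lyases rose: ZB8 (PH02Gene30509) went from a mean of 102 to 158 FPKM, with a log2 change of 0.84 ± 0.17. Cinnamoyl-CoA reductases and cinnamyl alcohol dehydrogenases, the last steps before the lignin monomers, had members on both sides. CCR1 (PH02Gene01698) rose by 1.39 ± 0.20 and CAD6 (PH02Gene49901) by 1.39 ± 0.36, whereas CCR1 (PH02Gene03651) and CAD2 (PH02Gene04778) fell (-1.45 ± 0.37 and -1.30 ± 0.29). The named gene of the list with the largest rise by level, 4CLL1 (PH02Gene03593), a relative of 4-coumarate-CoA ligase, was at 3.55, 9.18 and 3.68 and at 9.34, 14.47 and 27.16 (1.86 ± 0.52, adjusted p = 0.0452). Its call was lost in 4 of the 6 leave-outs. Without 3-year libraries 1, 2 and 3 the rises numbered 6, 3 and 2 and the falls 2, 2 and 0. Without 1-year libraries 1, 2 and 3 they numbered 6, 4 and 9 and the falls 5, 2 and 3.

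Laccases and class III peroxidases, which oxidise lignin monomers, fell in 9 of 45 cases and rose in 1, with a median of -0.64. PRX74 (PH02Gene03921), described as a peroxidase, was the 1 that rose, from 8.45, 8.64 and 10.31 to 13.52, 19.73 and 32.34 FPKM (1.47 ± 0.29, adjusted p = 0.0149), lost without 1-year library 2. PER25 (PH02Gene27381) fell from a mean of 11.7 to 1.37 FPKM (-2.87 ± 0.43) and PER51 (PH02Gene37318) from 63.9 to 21.2 (-1.41 ± 0.32). The 9 falls became 6, 5 and 2 without 3-year libraries 1, 2 and 3 and 6, 7 and 8 without 1-year libraries 1, 2 and 3.

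Pectin enzymes changed in both directions, 12 of 71 upwards and 10 downwards, with a median of 0.08 that turned negative (-0.04) with limma on log2(FPKM + 1). GATL4 (PH02Gene22886), a galacturonosyltransferase-like gene, was nearly absent at 1 year (0.13, 0.15 and 0.07 FPKM) and at 5.79, 1.18 and 1.96 at 3 years, with a log2 change of 4.79 ± 0.84 (SE, adjusted p = 0.0101) in all 6 leave-outs. GATL9 (PH02Gene01089) rose from a mean of 44.5 to 124 FPKM (1.68 ± 0.21). Members of the GAUT family, which build the homogalacturonan backbone, fell at 6 loci, among them GAUT1 (PH02Gene19759, -1.62 ± 0.44) and GAUT8 (PH02Gene33158, -1.0 ± 0.28), and 2 GAUT13 genes rose. PH02Gene41358, described as a polygalacturonase, which cuts pectin, was at 8.30, 18.31 and 24.90 at 1 year and at 3.21, 3.51 and 3.30 at 3 years (-2.14 ± 0.39, adjusted p = 0.0118), lost without 3-year library 3. Rises numbered 9, 6 and 4 without 3-year libraries 1, 2 and 3 and 10, 5 and 8 without 1-year libraries 1, 2 and 3, and falls 4, 3 and 1 and then 9, 3 and 4.

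Expansins and xyloglucan endotransglucosylases, which loosen and rejoin primary walls, had 1 rise and 2 falls among 17, with a median of 0.04 that turned negative (-0.12) with limma on log2(FPKM + 1). The shares were 5.88% and 11.8%, against 6.67% and 5.64% of all genes. XTH (PH02Gene43877) was at 36.63, 38.89 and 27.74 FPKM at 1 year and at 53.53, 163.90 and 81.15 at 3 years (1.71 ± 0.35, adjusted p = 0.0166), a call lost without 3-year library 3. EXLA1 (PH02Gene00824), an expansin-like gene, was at 8.80, 15.42 and 10.31 and at 3.51, 6.68 and 3.45 (-1.15 ± 0.33, adjusted p = 0.049), and was called only without 3-year library 2 among the leave-outs.

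None of the 54 tested light-harvesting and photosystem genes rose and 26 fell, with a median log2 change of -1.73. The median was -1.31 with limma on log2(FPKM + 1) and -1.09 after quantile normalization. The list holds 93 genes, and those not tested did not pass the FPKM filter. A gene below 1 FPKM in every 3-year library could pass it only through younger stems. The share of falls and the median therefore lean towards falls. CAB-M9 (PH02Gene04237), a chlorophyll-binding protein of the light-harvesting antenna, was at 11.55, 13.05 and 6.78 FPKM at 1 year and at 0.61, 0.32 and 0.52 at 3 years. The groups did not overlap, and the log2 change of -4.19 ± 0.68 (SE, adjusted p = 0.00854) held in all 6 leave-outs. Being below 1 FPKM in every 3-year library, CAB-M9 passed the filter only through younger stems. CAB7 (PH02Gene17893) fell by 2.76 ± 0.40, and CAB8 (PH02Gene45771) by 3.49 ± 0.50 on the log2 scale. Falls covered both photosystems: PSAF (PH02Gene23390), a photosystem I subunit, had a log2 change of -1.73 ± 0.29, and PSBO (PH02Gene49304), of the oxygen-evolving complex of photosystem II, -2.31 ± 0.42. Summed FPKM of the list was 392.4, 393.1 and 472.7 at 1 year, 203.4, 185.1 and 185.3 at 2 years, and 167.2, 249.9 and 129.4 at 3 years. Without 3-year library 3 the 26 falls became 9, without 1-year library 2 they became 16, and without any other library 18 to 22.

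Of 14 tested carbon fixation genes 11 fell and 0 rose, with a median of -1.81. The list holds 18 genes, and the filter has the same lean towards falls here. PH02Gene11392, a sedoheptulose bisphosphatase of the Calvin cycle, was at 13.21, 5.34 and 8.42 FPKM at 1 year and at 1.79, 0.78 and 0.31 at 3 years (-2.99 ± 0.57, adjusted p = 0.0132), a call lost without 3-year library 3. Both called RBCS-A genes (PH02Gene30282 and PH02Gene30287), the small subunit of the carbon-fixing enzyme Rubisco, fell from means of 68.3 and 48.7 to 17.7 and 14.4 FPKM. Phosphoribulokinase, which regenerates the carbon dioxide acceptor, fell at both called loci, with log2 changes of -1.93 ± 0.27 (PH02Gene03788) and -2.34 ± 0.46 (PH02Gene08757). Without 3-year library 3 the 11 falls became 1, without 1-year library 1 they became 7, and without each of the others they were 9. These are also markers of green tissue, and whether its share of the sample had a part in the falls was not tested.

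Of 58 heat shock proteins 13 fell and 2 rose, with a median of -0.34. HSP16.9C (PH02Gene22220), a small heat shock protein that keeps unfolded proteins soluble, was at 357.92, 93.61 and 155.81 FPKM at 1 year and at 21.09, 29.88 and 9.23 at 3 years. Library 1 was highest at 1 year, there was no overlap, and the log2 change was -3.19 ± 0.70 (SE, adjusted p = 0.021), lost without 3-year library 1 or 3. HSP16.9A (PH02Gene22221) was at 30.53, 6.58 and 10.46 and at 0.71, 0.00 and 0.51 (-4.97 ± 1.02, adjusted p = 0.0168), lost without 3-year library 3. Being below 1 FPKM in every 3-year library, it passed the filter only through younger stems. The other falls were of chaperones described as chloroplast or mitochondrial, of 2 further small proteins and of an HSP82: HSP90-5 (PH02Gene05953) went from a mean of 155 to 33.97 FPKM (-2.04 ± 0.46) and HSP70-9 (PH02Gene04627) from 18.2 to 6.04 (-1.39 ± 0.21). The 13 falls numbered 7, 5 and 3 without 3-year libraries 1, 2 and 3 and 8, 10 and 15 without 1-year libraries 1, 2 and 3.

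Of 55 genes of endoplasmic reticulum folding 11 rose and 1 fell, with a median of 0.32. CRT3 (PH02Gene43611), a calreticulin that folds glycoproteins, was at 113.40, 101.82 and 154.30 FPKM at 1 year, at 206.49, 229.77 and 195.45 at 2 years and at 289.78, 278.95 and 404.39 at 3 years. All 3-year libraries were above all 1-year libraries, and the log2 change of 1.61 ± 0.22 (SE, adjusted p = 0.00561) held in all 6 leave-outs. BIP1 (PH02Gene05657), the main chaperone of that compartment, rose from a mean of 187 to 393 FPKM (1.27 ± 0.21), and PH02Gene31917, an endoplasmin, from 153 to 244 (0.87 ± 0.20). ERD2 (PH02Gene38545), the receptor that returns such proteins from the Golgi, rose by 1.43 ± 0.16. The 1 member that fell, PH02Gene37282, is described as an endoplasmin too and was at 18.18, 20.92 and 19.61 and at 10.25, 10.68 and 9.25 (-0.76 ± 0.14, adjusted p = 0.0112), lost without 3-year library 3. HSP70 (PH02Gene26744), described as a cytosolic heat shock cognate, was one of the risen heat shock proteins, at 242.77, 251.47 and 132.39 and at 358.31, 366.97 and 479.78 (1.14 ± 0.28, adjusted p = 0.0284), lost without 3-year library 3 or 1-year library 2. The 11 rises were 7, 6 and 7 without 3-year library 2, 3-year library 3 and 1-year library 2, and 9 to 12 without the others.

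Cytosolic ribosomal proteins had a median log2 change of -0.41 over 303 genes, of which 22 fell (7.26%, against 5.64% of all genes) and 0 rose. RPL24 (PH02Gene05563) of the large subunit was at 14.66, 13.62 and 22.86 FPKM at 1 year and at 7.15, 4.19 and 5.97 at 3 years (-1.35 ± 0.30, adjusted p = 0.0221), lost without 3-year library 2 or 3 or 1-year library 3. Summed FPKM was 11529.3, 14643.4 and 17932.9 at 1 year and 10831.0, 10723.2 and 8339.8 at 3 years, so 1-year library 3 was furthest from the 3-year stem. Without 3-year libraries 1, 2 and 3 the 22 falls became 11, 3 and 0, and without 1-year libraries 1, 2 and 3 they became 40, 2 and 0.

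Starch genes that rose were all beta-amylases, which release maltose from starch: 8 of the 73 starch genes rose and 4 fell, with a median of -0.28. BAMY2 (PH02Gene29292) was at 7.23, 10.21 and 6.76 FPKM at 1 year, at 18.12, 48.30 and 26.97 at 2 years and at 49.40, 58.41 and 33.24 at 3 years. Every library of 2 and 3 years was above every 1-year library, and the log2 change from 1 to 3 years, 2.74 ± 0.34 (SE, adjusted p = 0.0039), held in all 6 leave-outs. The most abundant, BAMY2 (PH02Gene11050), rose from a mean of 139 to 644 FPKM (2.40 ± 0.25). BAMY1 rose at 3 loci and BAM3 at 2, by log2 changes between 1.40 ± 0.30 (PH02Gene02876) and 1.90 ± 0.27 (PH02Gene14201). SSIIIA (PH02Gene06030), a soluble starch synthase, was at 9.82, 6.0 and 4.0 and at 2.0, 1.13 and 1.43 (-1.93 ± 0.36, adjusted p = 0.0119), lost without 3-year library 3, and all 3 fallen starch synthases carry that symbol. The other fallen gene, GWD3 (PH02Gene38586), phosphorylates starch. Rises numbered 6 to 11 over the leave-outs, and the 4 falls 3, 1 and 0 without 3-year libraries 1, 2 and 3 and 2, 3 and 7 without 1-year libraries 1, 2 and 3.

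Of 18 genes of raffinose family synthesis 7 rose and 0 fell, with a median of 0.84. Galactinol synthase makes the galactose donor: GOLS2 (PH02Gene25695) rose from a mean of 156 to 870 FPKM (2.68 ± 0.29, adjusted p = 0.0025), and GOLS2 (PH02Gene28670) from 94.0 to 483 (2.52 ± 0.42). RFS2 (PH02Gene34575), a galactinol-sucrose galactosyltransferase of the next step, was at 9.18, 7.73 and 10.36 FPKM at 1 year, at 19.59, 22.30 and 27.09 at 2 years and at 62.92, 58.79 and 59.16 at 3 years. The 3 groups did not overlap, and its log2 change of 2.93 ± 0.20 had the smallest adjusted p among the named genes (0.000644), held in all 6 leave-outs. Summed FPKM of the list was 426.9, 397.0 and 381.9 at 1 year, 996.6, 700.7 and 1132.7 at 2 years, and 1435.0, 2577.5 and 1440.4 at 3 years. Leave-outs called 5 to 7 members higher.

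UGE-1 (PH02Gene30231), a UDP-glucose epimerase that makes UDP-galactose, the sugar galactinol synthase uses, was at 2.09, 3.98 and 1.44 FPKM at 1 year and at 13.30, 31.98 and 19.52 at 3 years. The lowest 3-year library was above the highest 1-year library, with a log2 change of 3.31 ± 0.45 (SE, adjusted p = 0.00516) in all 6 leave-outs.

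Sucrose and sugar transport genes rose in 8 of 75 cases and fell in 3, with a median of 0.26. MST4 (PH02Gene36491), a hexose transporter, was at 15.50, 14.79 and 28.45 FPKM at 1 year and at 73.63, 44.29 and 80.28 at 3 years (1.97 ± 0.44, adjusted p = 0.0223), a call lost in 4 of the 6 leave-outs. Invertases, which split sucrose, rose at 5 loci: the cell wall types CIN1 (PH02Gene26446) and CIN2 (PH02Gene16852) by 1.67 ± 0.29 and 1.52 ± 0.33. SWEET16 (PH02Gene26486), a sugar channel, was at 6.68, 11.11 and 15.76 and at 1.40, 4.26 and 1.46 (-2.04 ± 0.50, adjusted p = 0.0295), lost in 4 of the 6 leave-outs, whereas the SWEET16 gene PH02Gene41640 rose by 0.78 ± 0.19. SUT2 (PH02Gene43118), a sucrose transporter that is also a phloem marker, was at 47.35, 51.90 and 49.85 and at 24.63, 30.23 and 19.45 (-0.81 ± 0.22, adjusted p = 0.0418), without overlap but called in 0 of the 6 leave-outs. The 8 rises became 6, 7 and 2 without 3-year libraries 1, 2 and 3 and 3, 2 and 8 without 1-year libraries 1, 2 and 3.

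LEA proteins and dehydrins, which protect membranes and proteins as cells dry, rose in 9 of 22 cases and fell in 0, with a median of 1.1. DHN1 (PH02Gene07646) was at 4.07, 4.29 and 10.34 FPKM at 1 year and at 31.44, 96.31 and 38.98 at 3 years. Library 2 was highest at 3 years, the groups did not overlap, and the log2 change of 3.35 ± 0.48 (SE, adjusted p = 0.00597) held in all 6 leave-outs. The most abundant members were dehydrins too: COR410 (PH02Gene13412) went from a mean of 1183 to 2707 FPKM (1.39 ± 0.30) and DHN1 (PH02Gene01531) from 655 to 1858 (1.70 ± 0.27). Abscisic stress-ripening proteins rose at 4 loci, among them PH02Gene06855 (2.49 ± 0.56) and PH02Gene20470 (2.58 ± 0.50). Leave-outs gave 6 to 10 rises.

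**Figure D3:**
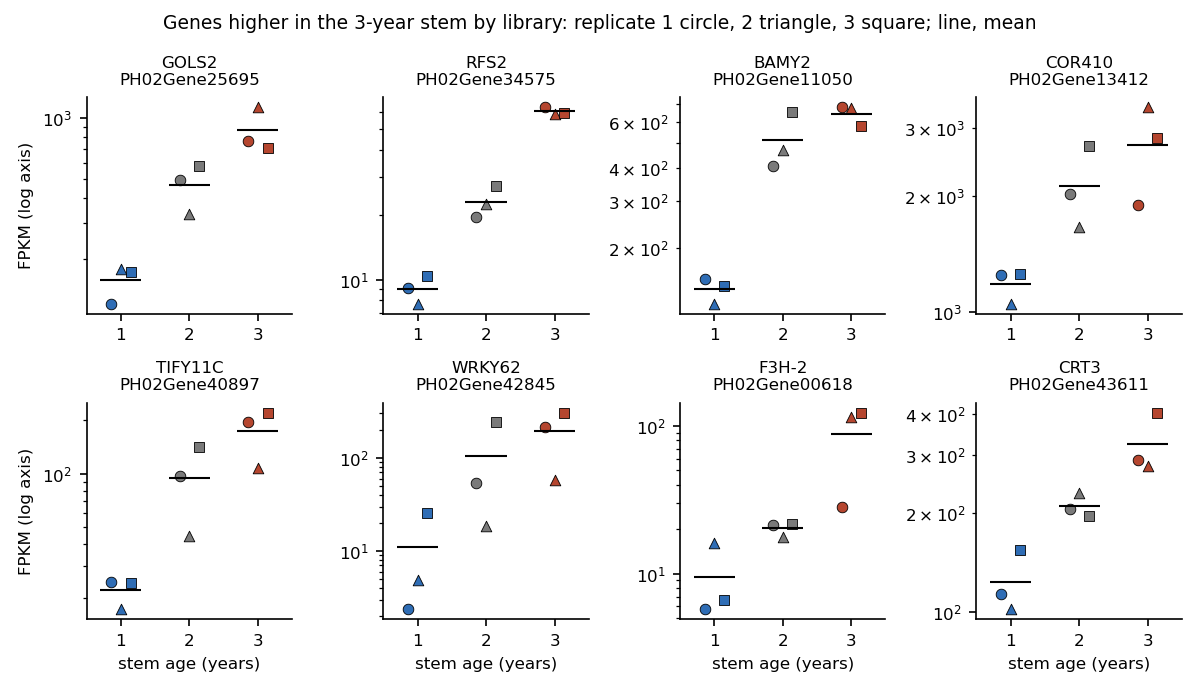
FPKM (log axis) of 8 genes that rose, in each library of the 1-year, 2-year and 3-year stem, with short lines at the group means. For RFS2, BAMY2 and CRT3 every 2-year and 3-year library lies above every 1-year library, while WRKY62 spreads from 2.37 to 25.81 at 1 year and from 58.08 to 304.26 at 3 years.

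Carotenoid and abscisic acid genes rose in 6 of 40 cases and fell in 4, with a median of -0.27. CA2 (PH02Gene00881), a beta-carotene hydroxylase that leads to zeaxanthin, was at 40.23, 46.48 and 42.20 FPKM at 1 year, at 70.97, 72.58 and 68.82 at 2 years and at 90.93, 112.68 and 102.76 at 3 years. Libraries of 1 age lay close together and the 3 ages did not overlap, with a log2 change of 1.45 ± 0.14 (SE, adjusted p = 0.00185) in all 6 leave-outs. PSY3, phytoene synthase at the entry to carotenoids, rose at both called loci (PH02Gene09283, 1.39 ± 0.18, and PH02Gene30313, 1.2 ± 0.17). ZEP (PH02Gene42507) and NCED3 (PH02Gene40492), the steps from zeaxanthin towards abscisic acid, rose by 0.97 ± 0.20 and 1.38 ± 0.27. CYP707A7 (PH02Gene23492), a hydroxylase that breaks abscisic acid down, was at 1.96, 7.21 and 5.45 and at 1.52, 1.90 and 1.00 (-1.50 ± 0.42, adjusted p = 0.0447), called only without 1-year library 1 among the leave-outs. Rises numbered 6, 5 and 3 without 3-year libraries 1, 2 and 3 and 8, 4 and 5 without 1-year libraries 1, 2 and 3. For the 4 falls the counts were 1, 1 and 1 and then 3, 2 and 3.

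Of 94 auxin genes 24 fell and 3 rose, with a median of -0.45. IAA16 (PH02Gene06288), an Aux/IAA repressor that auxin induces, was at 6.15, 8.0 and 14.81 FPKM at 1 year and at 0.74, 1.55 and 1.15 at 3 years, without overlap (-2.87 ± 0.42, adjusted p = 0.00627, all 6 leave-outs). Falls spanned carriers, response factors and repressors: PIN1C (PH02Gene07939), an efflux carrier, had a log2 change of -1.97 ± 0.36, ARF5 (PH02Gene29393), known in Arabidopsis for vascular development, -1.71 ± 0.29, and ARF17 (PH02Gene03160) -1.47 ± 0.16. The 3 that rose were response factors, with ARF16 (PH02Gene02652), a repressor type, at 35.69, 35.58 and 23.29 and at 59.79, 78.92 and 88.58 (1.46 ± 0.26, adjusted p = 0.0104, all 6 leave-outs). DRMH1 (PH02Gene21281), described as an auxin-repressed protein, fell from a mean of 219 to 51.5 FPKM (-1.90 ± 0.37). Summed FPKM of the list was 1928.6, 2033.3 and 2020.7 at 1 year and 1373.4, 1397.0 and 1480.9 at 3 years. Without 3-year library 3 the 24 falls became 9, and without each of the others they were 16 to 22.

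Of the 54 jasmonate genes 5 rose and 2 fell, with a median of 0.46. The shares were 9.26% and 3.7%, against 6.67% and 5.64% of all genes. TIFY11C (PH02Gene40897), a JAZ-type repressor that jasmonate induces, was at 24.43, 17.19 and 24.22 FPKM at 1 year, at 96.77, 44.52 and 141.89 at 2 years and at 194.36, 107.77 and 220.38 at 3 years. All 3-year libraries were above all 1-year libraries, and the log2 change of 3.19 ± 0.46 (SE, adjusted p = 0.00608) held in all 6 leave-outs. TIFY11A (PH02Gene42410) rose by 2.17 ± 0.34 and CM-LOX2 (PH02Gene47636), a chloroplast lipoxygenase, by 2.10 ± 0.33. GH3.5 (PH02Gene20938), described as the synthetase that joins jasmonate to amino acids, was at 3.16, 4.37 and 4.96 and at 1.33, 0.56 and 0.20 (-2.32 ± 0.57, adjusted p = 0.0298), lost in 4 of the 6 leave-outs. The rises numbered 9 without 3-year library 2 and 4 or 5 without the others, and the falls 0 to 3.

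Ethylene genes had 2 falls and 0 rises among 36. The fallen share, 5.56%, was near the 5.64% of all genes. Their median of 0.14 turned negative (-0.05) with limma on log2(FPKM + 1). EIN2 (PH02Gene33717) and EIL2 (PH02Gene16691), which carry the ethylene signal to the nucleus, were those that fell. EIL2 was at 17.84, 58.85 and 40.24 FPKM at 1 year and at 14.82, 16.33 and 9.49 at 3 years (-1.31 ± 0.35, adjusted p = 0.0383), called only without 1-year library 1 among the leave-outs. Of 17 gibberellin genes edgeR called 0, and the most abundant, CIGR1 (PH02Gene44779), a GRAS protein, was at 666.04, 552.00 and 819.78 and at 922.69, 730.60 and 1069.79, with a log2 change of 0.63 ± 0.32 (SE, adjusted p = 0.225).

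Flavonoid genes rose in 4 of 44 cases and fell in 6, with a median of -0.08. The shares were 9.09% and 13.6%, against 6.67% and 5.64% of all genes. F3H-2 (PH02Gene00618), a flavanone dioxygenase, was at 5.74, 16.16 and 6.59 FPKM at 1 year and at 28.13, 115.60 and 122.53 at 3 years. Its 2-year values, 21.36, 17.67 and 21.62, lay between, and the log2 change of 3.44 ± 0.55 (SE, adjusted p = 0.00832) held in all 6 leave-outs. The F3H-2 gene of the neighbouring identifier, PH02Gene00617, rose by 2.45 ± 0.45. Both called CYP75A1 genes, flavonoid hydroxylases that direct flow to more oxidised flavonoids, fell: PH02Gene47303 was at 9.74, 12.35 and 12.36 and at 1.76, 1.92 and 2.20 (-2.34 ± 0.19, adjusted p = 0.00114). It was chosen after its values were seen. IRL (PH02Gene27584), described as an isoflavone reductase, was at 13.08, 3.22 and 15.13 and at 0.65, 0.86 and 0.29, and at 0.62, 6.68 and 0.50 at 2 years. That is the order of libraries seen in the wall genes, and its log2 change of -3.91 ± 0.96 (SE, adjusted p = 0.0295) was kept only without 1-year library 2. Rises numbered 3, 5 and 1 without 3-year libraries 1, 2 and 3 and 2, 3 and 4 without 1-year libraries 1, 2 and 3, and the 6 falls became 2 without 3-year library 3 and 4 or 5 without the others.

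NAC transcription factors, taken like the other regulator families from the family column of the deposited table, had the highest share of risen members among those families, 29 of 93, with 6 falls and a median of 0.44. Of these 29, 1 gene, PH02Gene08340, is described as a wall-associated kinase. NAC079 (PH02Gene47270) was at 0.43, 0.66 and 0.54 FPKM at 1 year, at 3.68, 0.68 and 1.83 at 2 years and at 9.77, 25.77 and 16.32 at 3 years. The 3-year libraries were all far above the others, and the log2 change of 5.16 ± 0.60 (SE, adjusted p = 0.00322) held in all 6 leave-outs. Abundant risen members were NAC014 (PH02Gene05356), from a mean of 121 to 311 FPKM (1.55 ± 0.23), and NAC046 (PH02Gene19279), named after a senescence regulator of Arabidopsis, from 111 to 202 (1.08 ± 0.26). NAC048 (PH02Gene40137) rose by 1.77 ± 0.20 and JUB1 (PH02Gene49650), a longevity regulator in Arabidopsis, by 1.93 ± 0.41. Of the 6 falls, 2 were the NAC043 genes described with the wall and 3 carry the symbol NAC083, a negative regulator of vessel formation in Arabidopsis, with PH02Gene08630 at -1.93 ± 0.36. The 29 rises became 25, 19 and 7 without 3-year libraries 1, 2 and 3 and 23, 13 and 18 without 1-year libraries 1, 2 and 3, and the falls became 3 without 3-year library 3 and 4 to 8 without the others.

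WRKY factors, a family tied to defence and senescence, rose in 17 of 100 cases and fell in 1, with a median of 0.53. WRKY62 (PH02Gene42845) was at 2.37, 4.87 and 25.81 FPKM at 1 year, at 54.07, 18.34 and 241.73 at 2 years and at 212.82, 58.08 and 304.26 at 3 years. WRKY76 (PH02Gene06791) was at 0.49, 0.82 and 3.58, at 4.51, 2.36 and 24.13, and at 67.72, 4.47 and 43.12. In both, library 3 was highest at 1 and 2 years, and library 2 was lowest at 3 years. Their log2 changes, 4.38 ± 1.14 (SE, adjusted p = 0.0349) and 4.8 ± 1.2 (SE, adjusted p = 0.0312), were kept by 2 of the 6 leave-outs, those without 3-year library 2 and 1-year library 3. WRKY6 (PH02Gene35824) had a closer spread, with a log2 change of 2.05 ± 0.34, and the WRKY6 gene PH02Gene35136 rose from a mean of 70.3 to 169 FPKM (1.49 ± 0.35). WRKY28 is counted at PH02Gene33404 and PH02Gene33405, whose counts are equal. The gene that fell, WRKY69 (PH02Gene15084), was at 4.47, 3.68 and 3.52 and at 0.78, 1.46 and 1.52 (-1.45 ± 0.32, adjusted p = 0.0212), lost in 3 of the 6 leave-outs. The 17 rises became 11, 14 and 1 without 3-year libraries 1, 2 and 3 and 8, 5 and 19 without 1-year libraries 1, 2 and 3.

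AP2/ERF factors rose in 14 of 116 cases and fell in 6, with a median of 0.14 that turned negative (-0.05) with limma on log2(FPKM + 1). PH02Gene23620, described as an ethylene-responsive RAP2-type factor although its symbol is CERK1, was at 0.23, 0.13 and 0.27 FPKM at 1 year and at 1.86, 2.57 and 1.73 at 3 years (3.41 ± 0.47, adjusted p = 0.00553, all 6 leave-outs). With 2-year values of 0.38, 0.36 and 0.27, it passed the FPKM filter only through the 3-year libraries, where it is high. The leave-outs kept the same set of tested genes. PH02Gene50244, also counted as risen here, is described as a calcium-binding protein. DREB1C (PH02Gene23182), of a family that switches on cold genes, rose from a mean of 68.7 to 137 FPKM (1.2 ± 0.26). RAP2-2 (PH02Gene40881) was at 52.56, 80.99 and 58.37 and at 20.92, 23.83 and 12.24 (-1.56 ± 0.26, adjusted p = 0.00953, all 6 leave-outs). Rises became 7, 9 and 1 without 3-year libraries 1, 2 and 3 and 9, 4 and 12 without 1-year libraries 1, 2 and 3, and falls 2, 2 and 2 and then 5, 3 and 3.

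MYB factors split evenly, 6 up and 6 down of 65, with a median of 0.07 that turned negative (-0.12) with limma on log2(FPKM + 1). The share was 9.23% in each direction, against 6.67% (higher) and 5.64% (lower) of all genes. MYB4 (PH02Gene22400), described only as a MYB4-like protein, was at 16.11, 13.18 and 11.91 FPKM at 1 year and at 32.82, 31.92 and 50.36 at 3 years (1.68 ± 0.30, adjusted p = 0.0112, all 6 leave-outs). MYB2 (PH02Gene06536) was at 39.08, 52.22 and 16.65 and at 4.30, 5.33 and 5.60 (-2.64 ± 0.38, adjusted p = 0.00608, all 6 leave-outs), and 3 of the 6 fallen genes carry that symbol. Relatives of MYB3R, which control genes of mitosis, made up 3 of the 6 rises. The rises became 4, 2 and 2 without 3-year libraries 1, 2 and 3 and 5, 2 and 4 without 1-year libraries 1, 2 and 3, and the falls 5, 4 and 2 and then 6, 3 and 6.

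SPL factors, which govern phase change in plants, fell in 4 of 18 cases and rose in 1, with a median of -0.36. SPL3 (PH02Gene14344) was at 34.62, 75.16 and 72.92 FPKM at 1 year, at 14.50, 24.56 and 9.11 at 2 years and at 5.92, 11.12 and 6.31 at 3 years. The 1-year libraries were all above the others, and the log2 change of -2.76 ± 0.38 (SE, adjusted p = 0.00561) held in all 6 leave-outs. SPL12 (PH02Gene29757) fell from a mean of 93.5 to 32.6 FPKM (-1.32 ± 0.16). SPL15 (PH02Gene07051), the 1 that rose, was at 149.09, 143.20 and 154.34 and at 176.53, 219.43 and 213.63 (0.65 ± 0.18, adjusted p = 0.0459), called in 0 of the 6 leave-outs. The falls numbered 3 to 5 over the leave-outs.

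MADS15 (PH02Gene42323), a MADS-box gene whose rice counterpart acts in the shift to flowering, was at 5.25, 5.27 and 3.19 FPKM at 1 year, at 17.21, 10.19 and 12.83 at 2 years and at 28.07, 81.38 and 32.15 at 3 years. The 3 ages did not overlap, and the log2 change was 3.53 ± 0.43 (SE, adjusted p = 0.0039) in all 6 leave-outs. RL6 (MSTRG.19989), a small MYB-related RADIALIS-like gene, went the other way, at 18.39, 18.28 and 19.85 at 1 year and at 1.86, 1.88 and 0.61 at 3 years. Its 1-year libraries were nearly equal, and the log2 change of -3.46 ± 0.37 (SE, adjusted p = 0.0025) held in all 6 leave-outs.

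Calcium signalling genes rose in 24 of 125 cases and fell in 1, with a median of 0.46. Calcium pumps, which restore low calcium after a signal, were among them: ACA9 (PH02Gene28100) was at 50.04, 42.14 and 58.30 FPKM at 1 year, at 201.07, 139.94 and 262.04 at 2 years and at 170.38, 270.93 and 276.96 at 3 years. Libraries of 2 and 3 years were mixed with each other and all above those of 1 year, with a log2 change from 1 to 3 years of 2.45 ± 0.31 (SE, adjusted p = 0.00425) in all 6 leave-outs. ACA10 (PH02Gene24301), a related pump, rose from a mean of 35.6 to 131 FPKM (2.04 ± 0.54). Calmodulin-like calcium sensors rose at 10 loci under CML symbols, among them CML16 (PH02Gene04135, 1.98 ± 0.26) and CML15 (PH02Gene30913, 1.69 ± 0.22), and calcium-dependent protein kinases at 4 under CPK symbols, among them CPK1 (PH02Gene48423, 0.73 ± 0.17). CAM53 (PH02Gene04511), a calmodulin, was the 1 that fell, from 62.15, 68.16 and 56.53 to 36.02, 32.70 and 35.86 (-0.64 ± 0.15, adjusted p = 0.0274), lost in 5 of the 6 leave-outs. The 24 rises became 21, 14 and 7 without 3-year libraries 1, 2 and 3 and 23, 8 and 12 without 1-year libraries 1, 2 and 3.

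Defence genes rose in 11 of 92 cases and fell in 4, with a median of 0.24. PH02Gene41017, a glucanase that attacks fungal walls and callose, was at 2.20, 12.57 and 10.52 FPKM at 1 year and at 22.97, 27.66 and 47.52 at 3 years (2.20 ± 0.53, adjusted p = 0.0279), lost without 3-year library 3. GLC1 (PH02Gene49193), another glucanase, rose from a mean of 80.4 to 249 FPKM (1.83 ± 0.29). Chitinases rose at 3 loci, with Cht8 (PH02Gene03004) going from a mean of 9.73 to 31.8 FPKM (1.93 ± 0.45). TLP1 (PH02Gene05114), a thaumatin-like protein, was at 1.03, 5.32 and 3.35 and at 0.59, 0.45 and 0.21 (-2.66 ± 0.61, adjusted p = 0.0235), lost in 3 of the 6 leave-outs. Without 3-year libraries 1, 2 and 3 the rises became 5, 8 and 3, and without 1-year libraries 1, 2 and 3 they became 6, 6 and 9.

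Nitrogen transport and assimilation genes rose in 11 of 107 cases and fell in 10, with a median of 0.01 that turned negative (-0.17) with limma on log2(FPKM + 1). The shares were 10.3% and 9.35%, against 6.67% and 5.64% of all genes. Ammonium transporters were on the risen side at 4 loci: AMT3-1 (PH02Gene22305) was at 0.05, 1.41 and 1.85 FPKM at 1 year and at 7.46, 3.58 and 6.73 at 3 years (2.67 ± 0.71, adjusted p = 0.0366), lost in 3 of the 6 leave-outs. Members of the NPF family of nitrate and peptide carriers were on both sides. NPF6.3 (PH02Gene40299), the nitrate carrier and sensor of Arabidopsis, rose from a mean of 55.9 to 115 FPKM (1.24 ± 0.26), and NPF7.3 (PH02Gene03828) was at 19.84, 8.80 and 5.50 and at 1.72, 0.44 and 0.69 (-3.37 ± 0.67, adjusted p = 0.0154), lost without 3-year library 3. Rises became 4, 8 and 1 without 3-year libraries 1, 2 and 3 and 8, 3 and 8 without 1-year libraries 1, 2 and 3, and falls 7, 6 and 2 and then 9, 8 and 7.

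Potassium and phosphate carriers rose in 7 of 66 cases and fell in 5, with a median of 0.28. The shares were 10.6% and 7.58%, against 6.67% and 5.64% of all genes. SPX1 (PH02Gene49111), a phosphate sensor protein, was at 4.77, 1.55 and 6.42 FPKM at 1 year and at 11.06, 15.07 and 15.14 at 3 years (1.88 ± 0.42, adjusted p = 0.0217), lost without 3-year library 3. HAK11 (PH02Gene01771), a potassium transporter, was at 15.94, 11.97 and 31.96 and at 3.66, 3.75 and 3.32 (-2.27 ± 0.36, adjusted p = 0.00806, all 6 leave-outs). The 3-year libraries were nearly equal for that gene. Rises became 4, 7 and 1 without 3-year libraries 1, 2 and 3 and 5, 2 and 14 without 1-year libraries 1, 2 and 3, and falls 4, 2 and 1 and then 4, 2 and 3.

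Aquaporins, the water channels, fell in 3 of 23 cases and rose in 1, with a median of -0.45, and each leave-out called 3 members lower. PIP2-6 (PH02Gene26386), a plasma membrane channel, was at 29.44, 22.73 and 44.39 FPKM at 1 year and at 5.60, 5.05 and 3.54 at 3 years (-2.56 ± 0.28, adjusted p = 0.0025). TIP1-1 (PH02Gene03621), a channel of the vacuole membrane, was at 116.20, 206.54 and 197.06 and at 375.30, 525.54 and 419.74 (1.55 ± 0.26, adjusted p = 0.00878). Neither pair of groups overlapped. TDT (PH02Gene07519), a vacuolar carrier of malate, also rose, from 3.24, 9.66 and 8.82 to 28.03, 126.58 and 38.46 (3.35 ± 0.65, adjusted p = 0.0139, all 6 leave-outs).

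Further genes were among the largest changes by level. NANA (PH02Gene18397), described as an aspartyl protease, was at 9.78, 7.89 and 15.58 FPKM at 1 year, at 26.82, 35.29 and 51.51 at 2 years and at 80.23, 171.01 and 91.32 at 3 years, so the 3 ages did not overlap (3.55 ± 0.38, adjusted p = 0.0025, all 6 leave-outs). FQR1 (PH02Gene39599), a quinone reductase, was at 14.38, 13.31 and 43.42 and at 2.03, 1.43 and 1.07 (-3.72 ± 0.84, adjusted p = 0.0225), lost without any 1 of the 3-year libraries.

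Senescence and autophagy genes rose in 5 of 69 cases and fell in 1. The risen share, 7.25%, was near the 6.67% of all genes. Their median of 0.10 turned negative (-0.07) with limma on log2(FPKM + 1). TET8 (PH02Gene19014), described as a senescence-associated protein, was at 12.92, 9.45 and 9.77 FPKM at 1 year and at 31.19, 28.27 and 41.42 at 3 years (1.84 ± 0.26, adjusted p = 0.00589, all 6 leave-outs). SGR (PH02Gene05142), which starts chlorophyll breakdown, rose by 0.93 ± 0.25. AMC2 (PH02Gene08548), a metacaspase, was at 335.86, 407.64 and 164.14 and at 95.60, 50.34 and 48.16 (-2.04 ± 0.44, adjusted p = 0.0207), lost in 3 of the 6 leave-outs. Rises became 2 or 3 in each leave-out.

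Cell division genes had 5 rises and 2 falls among 61. The risen share, 8.2%, was near the 6.67% of all genes. Their median of 0.02 turned negative (-0.14) with limma on log2(FPKM + 1). KIN7C (PH02Gene29319), a kinesin motor, was at 0.57, 0.40 and 0.71 FPKM at 1 year and at 2.85, 2.85 and 1.79 at 3 years (2.35 ± 0.40, adjusted p = 0.0095, all 6 leave-outs). KIN14H (PH02Gene32099), another kinesin, was at 2.27, 0.93 and 2.71 and at 0.14, 0.27 and 0.05 (-3.46 ± 0.82, adjusted p = 0.0265), with 0.14, 1.51 and 0.39 at 2 years, and 4 of the 6 leave-outs lost the call. Clock genes had 2 rises and 0 falls among 28, a risen share of 7.14%, also near that of all genes. Their median of 0.10 turned negative (-0.05) with limma on log2(FPKM + 1). PRR95 (PH02Gene42762), a clock repressor, was at 41.81, 42.10 and 19.73 and at 59.58, 89.52 and 64.94 (1.23 ± 0.35, adjusted p = 0.0482), called in 0 of the 6 leave-outs. Of 34 hypoxia genes HB2 (PH02Gene19169), a haemoglobin that binds oxygen and nitric oxide, was the 1 that rose, from 155.71, 97.83 and 107.51 to 361.79, 226.00 and 202.84 (1.31 ± 0.36, adjusted p = 0.0426), kept only without 1-year library 1. The risen share of that list, 2.94%, was below the 6.67% of all genes, and its median was -0.15.

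Markers of other tissues moved too. Of 20 epidermis and cuticle markers 6 rose and 0 fell, with a median of 0.89, and their summed FPKM was 122.3 to 221.6 at 1 year and 264.1 to 281.7 at 3 years. WSD1 (PH02Gene36708), a wax ester synthase, was at 5.74, 3.82 and 2.78 FPKM at 1 year and at 9.82, 23.10 and 28.76 at 3 years (2.5 ± 0.41, adjusted p = 0.00865, all 6 leave-outs), and KCS1 (PH02Gene25671), which lengthens wax fatty acids, rose by 3.51 ± 0.40. Of 6 root markers 3 fell, with a median of -1.67 and a summed FPKM of 289.7 to 380.4 at 1 year and 192.2 to 312.1 at 3 years. PH02Gene45891, described as a Casparian strip integrity factor, was at 33.91, 30.88 and 26.82 and at 7.79, 7.72 and 3.82 (-2.06 ± 0.31, adjusted p = 0.00637, all 6 leave-outs). Among 9 phloem markers the 2 SUT2 genes fell, with a median of 0.41 over the list and 0 falls in each leave-out, and the summed FPKM was 155.8 to 161.0 at 1 year and 125.8 to 142.0 at 3 years. Of 29 markers of dividing cells 3 histone genes rose, with a median of 0.30 over the list and with PH02Gene02757 at 0.70, 1.61 and 0.95 and at 4.24, 9.44 and 4.63 (2.68 ± 0.47, adjusted p = 0.0102, all 6 leave-outs), and the summed FPKM was 389.6 to 581.2 and 490.1 to 662.2. The part of tissue composition in the results above was not tested.

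**Figure D4:**
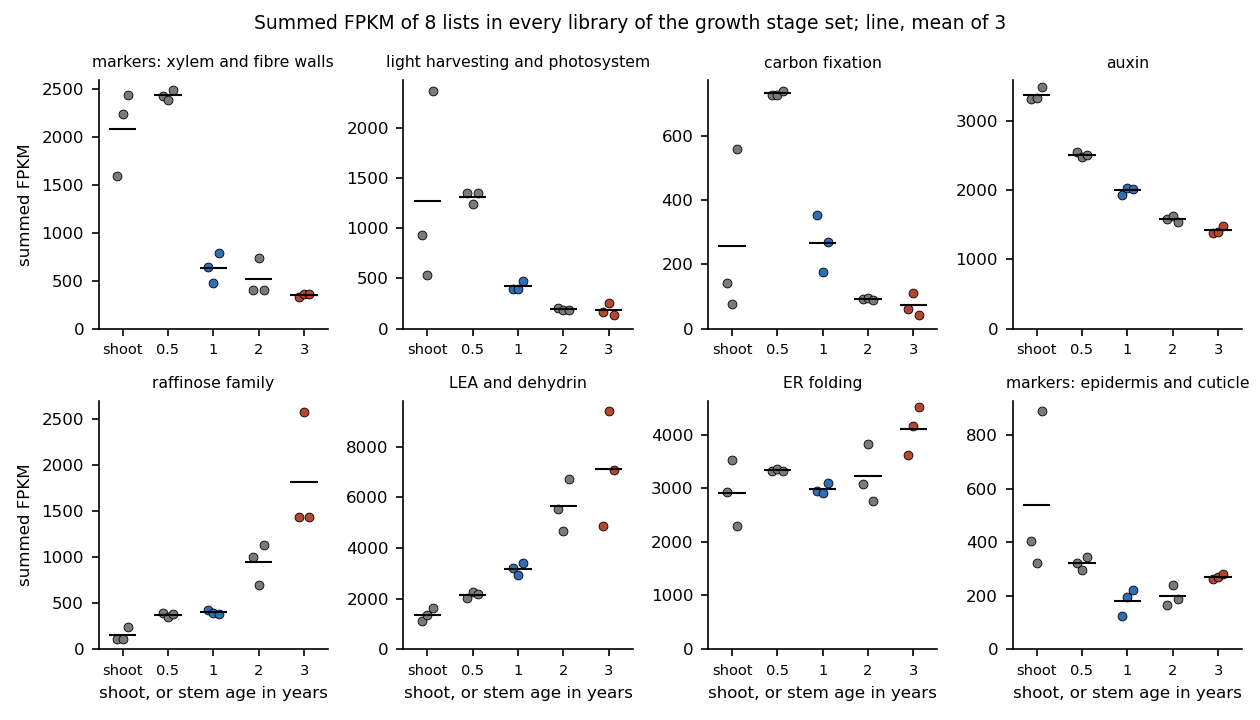
Summed FPKM of 8 gene lists in each library of the growth stage set, from shoot to 3-year stem, with points for libraries and lines through the group means. The group means of light harvesting, carbon fixation and xylem and fibre wall markers are lowest in the 2-year and 3-year stems, whereas raffinose family synthesis is lowest in the shoot and highest at 3 years (1435.0 to 2577.5).

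The earlier stages of the set give the range of these lists, as levels without a test. Raffinose family genes summed to 106.6 to 238.7 FPKM in the shoot and 345.1 to 388.4 in the 0.5-year stem, below every 2-year and 3-year library. LEA proteins and dehydrins summed to 1116.5 to 1615.8 in the shoot, 2027.3 to 2244.5 at 0.5 years and 4865.6 to 9417.8 at 3 years. Xylem and fibre wall markers stood at 1592.8 to 2438.2 in the shoot and 2386.2 to 2491.1 at 0.5 years, above every library of 1 year or older. The terpene synthases summed to 1232.0 to 1349.2 at 0.5 years, several times their level at 1 and 3 years.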

How the data were processed

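Per the submitters' processing notes, HISAT2, StringTie 1.3.1 and RSEM were used, with no role or order, and no genome build is named in the sources used here. The authors deposited expected counts and FPKM per gene in 1 table of the 15 growth stage libraries, with symbols and descriptions. These expected counts were rounded, and the test kept genes whose FPKM reached 1 in 3 or more of the 9 libraries of 1-year, 2-year and 3-year stem. The 9 libraries entered 1 fit with edgeR 4.0.16 in R 4.3.3 (quasi-likelihood test, TMM scaling, two-sided, Benjamini-Hochberg adjustment over all genes tested). Alternatives used DESeq2 1.42.0, limma 3.58.1, other scalings, filters and sets of libraries, a replicate block and leave-outs of each of the 6 libraries, and the script was tested on simulated data.

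Members and lists were chosen with earlier results of these data known, and 6 lists (raffinose family, tubulins, xylan and UDP-xylose, SPL, calcium signalling, endoplasmic reticulum folding) after values were seen. Genes given in full are the 10 largest rises and falls by log2(FPKM + 1) among called, described genes whose groups did not overlap and averaged at least 10 FPKM on the higher side, for each list the called gene that rose most and the one that fell most (averaging at least 1 FPKM), or its most abundant gene where none was called, and the 6 most abundant terpene synthases. Other genes were chosen after their values were seen. Across all tested genes FPKM did not overlap between groups in 10.2% (higher) and 26.8% (lower).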

Additional observations from a re-analysis of the deposited data

How the results depend on the processing

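The fit of 12 libraries without the 0.5-year stem made 1163 calls (613 higher and 550 lower), and the cause was not tested. limma gave 1097 higher and 2362 lower with a pseudocount of 1, and 1034 and 2206 with 0.1. Those fits use FPKM with no rescaling between libraries, and after quantile normalization limma gave 1406 and 1212. With limma on log2(FPKM + 1) the medians of the NAC, calcium signalling, endoplasmic reticulum folding, jasmonate and raffinose family lists were 0.23, 0.23, 0.11, 0.22 and 0.48. DESeq2 called 4427, the fit of the 6 libraries alone 2490, of all 15 libraries 2966, without a filter 3399 and with a mean FPKM of 5 or more 2214. Leaving out 1 library gave 569 to 2262 calls, 397 to 1267 higher and 172 to 995 lower.

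Replicate numbers did not pair the libraries, with correlations of deviations between same-numbered libraries of 0.071, -0.018 and 0.01, and a replicate block gave 3215 calls. Under it the log2 change of TPS7 (PH02Gene05612) was 0.01. Over the leave-outs, that of PH02Gene05612 ranged from -0.55 to 0.41, of CarS (PH02Gene40255) from -0.9 to 0.06 and of STPS (PH02Gene50979) from -2.21 to 0.06, and none of these genes was called. No other gene picked by the rules for genes given in full changed direction under any setting. This check did not cover CYP75A1 (PH02Gene47303). Of 480 leave-out fits of single called genes, 158 lost the call. Under the other alternatives 93 fits of such genes lost it. Depth limits low genes: those that did not reach an FPKM of 1 in 3 libraries were not tested. A gene could pass that filter through the libraries of 1 age alone. Of the genes given in full, NAC079, GATL4, KIN7C and PH02Gene23620 were below 1 FPKM in every 1-year library. They passed the filter only through older stems. Genes below 1 FPKM in every 3-year library, among them TLP1, IRL, KIN14H and HSP16.9A, passed it only through younger stems.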
